A study of Homo sapiens with 10 samples.

Results

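Condensin I, condensin II and the SMC5/6 complex are represented by 10 listed genes: SMC2 and SMC4, the ATPases of both condensins; NCAPH, NCAPG and NCAPD2 of condensin I; NCAPH2, NCAPG2 and NCAPD3 of condensin II; and SMC5 and SMC6. Genes were taken by their annotated symbol, with the brightest probe that carries that symbol alone. By this rule 7 of the 10 genes were measured, among 14232 genes with such a probe: SMC2, NCAPH, NCAPD3, NCAPG2, NCAPH2, SMC5 and SMC6. All 7 lay above the low-signal limit, a mean log2 level of 5.96, as did 11198 genes in all. SMC4, NCAPD2 and NCAPG are covered only by probes that other genes share, and their signals are given separately as a description.

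RNA was measured on 10 arrays of the human colorectal cancer line DLD-1 in a study of lamin B1 loss, S-phase length and chromosome territories. The wild type group was 1 untransfected culture without puromycin, and the empty vector group was 3 clones that carried the vector with no hairpin. The V2LHS_62673 group was 3 clones (8, 9 and 12) with that short hairpin RNA against LMNB1, the gene for lamin B1, and 1 array each. The V2LHS_62675 group was 3 arrays with a different hairpin. All 10 arrays share the DLD-1 background and RPMI medium with 10% FBS, and all transfected clones were kept in puromycin, labelled as 2 mg/ml. The sample descriptions and the design text put the 3 V2LHS_62675 arrays in clone 2, while their titles say clone 12 and call them biological replicates. Following the former, the 3 arrays were averaged to 1 sample, which leaves 8 samples, 4 knockdown and 4 control. Single cell clones can differ from each other apart from the hairpin, and V2LHS_62675 rests on 1 clone and wild type on 1 culture.

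Condensins are ring-shaped protein complexes that use ATP to fold chromatin into loops. Condensin II is in the nucleus throughout interphase and starts chromosome condensation in prophase, while condensin I reaches the chromosomes after the nuclear envelope breaks down. SMC5/6 is a related ring with roles in DNA repair and in resolving joined DNA molecules during replication. Lamin B1 is a filament protein of the nuclear lamina, which anchors chromatin at the nuclear edge. Many condensin subunit genes belong to the set whose RNA peaks late in the cell cycle. In bulk cultures, fewer cells in a cell cycle phase and less RNA per cell cannot be told apart.

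Promoters of some of the genes are shown because SMC2, NCAPH, NCAPG2 and NCAPD3 followed each other across samples, as described after the levels, and promoter elements of cell cycle genes can be looked up in them. RefSeq (GRCh38.p14) promoters of 300 bases, 250 before the start and 50 from it, were searched on both strands. The letters TTTGAA of the cell cycle genes homology region, bound by the MuvB complex in late cell cycle genes, occurred in 6 of the 9 genes searched, against 15.2% of 35116 promoters. Of the 6 genes both measured and searched, 3 held them: SMC2, NCAPD3 and NCAPG2. NCAPH did not hold them. The CCAAT box, bound by NF-Y, occurred in 3 of the 9 genes, which include NCAPH and NCAPD3, against 34.6% of promoters. The E2F core TTCCCGC occurred in 2 of the 9 genes, against 6.55% of promoters. The 9 genes have 12 listed promoters, and a gene counts if any of its promoters matches. The background is a share of single promoters, so the counts of genes can come out higher for that reason alone. NCAPH2 was not searched. The windows below run 5′ to 3′ on the gene's strand from 120 bases before the start to 10 from it, with matched letters in capitals; NCAPD3, SMC2 and NCAPH carry matches, and SMC5 has none in this window. SMC2 and NCAPD3 have 2 listed promoters each, and the one with the match is shown, the other having none. The NCAPG2 window is not shown and holds no match. The TTTGAA of NCAPG2 lies at 36 to 41 from the start, past the end of the window. They lie at chr11:134223958-134224087 (minus strand) for NCAPD3, and on the plus strand at chr9:104094189-104094318 for SMC2, chr2:96335646-96335775 for NCAPH and chr9:70258858-70258987 for SMC5.
NCAPD3: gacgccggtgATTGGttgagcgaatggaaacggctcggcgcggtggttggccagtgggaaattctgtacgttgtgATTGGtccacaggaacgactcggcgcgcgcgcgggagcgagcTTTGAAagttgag
SMC2: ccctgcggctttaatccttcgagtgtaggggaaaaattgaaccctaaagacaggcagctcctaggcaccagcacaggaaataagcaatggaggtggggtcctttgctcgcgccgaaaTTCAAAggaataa
NCAPH: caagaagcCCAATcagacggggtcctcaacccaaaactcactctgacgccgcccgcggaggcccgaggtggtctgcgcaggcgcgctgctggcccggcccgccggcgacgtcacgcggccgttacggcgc
SMC5: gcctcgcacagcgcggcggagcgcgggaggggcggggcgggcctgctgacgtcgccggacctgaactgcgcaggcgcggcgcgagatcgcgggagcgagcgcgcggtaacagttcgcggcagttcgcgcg
In NCAPD3 the capitals mark a reversed CCAAT box at positions -110 to -106 and again at -45 to -41 from the start, and TTTGAA across the start. In SMC2 they mark TTTGAA on the opposite strand, also across the start, and in NCAPH a CCAAT box at -112 to -108. A match is a run of letters and was not tested as a binding site.

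Clone 8 was unlike the other 9 arrays, and the tests of the 7 genes between knockdown and control are therefore given with and without it. Its correlation with the others over all probes was 0.915 to 0.926, against 0.986 to 0.994 among the others. Its values were compressed: against the empty vector mean, and with all features divided into 4 equal classes by mean level, the median of clone 8 differed by 0.54 on the log2 scale in the lowest class and by -0.60 in the highest. The signals of SMC2, NCAPH, NCAPD3 and SMC5 lie in the highest class, those of NCAPG2 and SMC6 in the third and that of NCAPH2 in the second. The only LMNB1 probe is shared with PCIF1. Its log2 level was 7.65 ± 0.14 (SD, n = 4) in the knockdown samples and 9.11 ± 0.30 (SD, n = 4) in the controls, without overlap, so no array went against its label, though the difference of -1.46 missed the threshold in limma's test (adjusted p = 0.0603). Without clone 8 the LMNB1 probe fell by 1.40 (SE 0.12, adjusted p = 9.1e-04) in V2LHS_62673 and by 1.31 (SE 0.15, adjusted p = 0.00372) in V2LHS_62675, against empty vector. All 12 colon epithelial markers were measured above the low-signal limit, with array medians of 9.04 to 9.60. Among markers of other cells, 3 of 6 measured leukocyte genes passed the limit (array medians 5.57 to 5.85, and 6.41 in clone 8), 2 of 5 endothelial genes (5.47 to 5.60, those that passed lying 0.59 above the empty vector mean in clone 8) and 5 of 6 fibroblast genes (6.71 to 6.93, and 7.43 in clone 8). PTPRC, the pan-leukocyte gene, lay between 3.82 and 4.28 on all arrays, CD3E between 4.42 and 4.97 and CD3D between 4.95 and 6.02. The 3 leukocyte genes that passed the limit were MS4A1 (7.13 to 7.88), CD14 (6.65 to 7.41) and CD53 (6.03 to 6.80).

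SMC2, the ATPase of both condensins, had a log2 level of 9.84 in wild type cells and of 9.61, 9.31 and 9.15 in the empty vector clones. In V2LHS_62673 it was 8.67 in clone 8, 9.60 in clone 9 and 9.70 in clone 12. The 3 V2LHS_62675 arrays gave 9.64, 9.70 and 9.84. Clone 8 was the lowest array, and the groups overlapped: clones 9, 12 and 2 lay between the highest empty vector clone and wild type or just below that clone. SMC2 was 9.43 ± 0.50 (SD, n = 4) in the knockdown samples and 9.48 ± 0.31 (SD, n = 4) in the controls. The difference of -0.05 (SE 0.25, adjusted p = 0.934, limma) was smaller than the spread, and without clone 8 it was 0.20 (SE 0.15, adjusted p = 0.848). Also without clone 8, SMC2 was 0.30 (SE 0.13) higher in V2LHS_62673 and 0.37 (SE 0.16) higher in V2LHS_62675 than in the empty vector clones, and neither passed the threshold (adjusted p = 0.295 and 0.264, limma).

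NCAPH is the kleisin subunit that closes the condensin I ring. Its log2 level was 10.80 in wild type cells and 10.52, 10.44 and 10.21 in the empty vector clones. Clone 8 gave 9.36, against 10.51 in clone 9 and 10.57 in clone 12. The V2LHS_62675 arrays gave 10.76, 10.56 and 10.59. Apart from clone 8, the knockdown arrays sat between the lowest and the highest control. The difference between knockdown and control was -0.23 (SE 0.28, adjusted p = 0.762, limma) with clone 8 and 0.08 (SE 0.13, adjusted p = 0.944) without it, so its direction rested on that array.

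Condensin II was measured through all its 3 own subunits. NCAPD3, a HEAT-repeat subunit, had a log2 level of 9.99 in wild type cells and 9.83, 9.72 and 9.68 in the empty vector clones. It was 8.72, 9.78 and 9.86 in clones 8, 9 and 12, and 9.80, 10.03 and 10.13 on the V2LHS_62675 arrays. Clone 8 was again lowest, and the first V2LHS_62675 array lay below the other two of the same clone and below the highest empty vector clone. The knockdown samples differed from the controls by -0.22 (SE 0.26, adjusted p = 0.761, limma), and by 0.07 (SE 0.095, adjusted p = 0.931) without clone 8.

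NCAPG2, the second HEAT-repeat subunit of condensin II, had a log2 level of 9.24 in wild type cells and 8.99, 8.83 and 8.57 in the empty vector clones. It was 8.43, 8.78 and 8.98 in clones 8, 9 and 12, and 8.76, 9.17 and 9.14 on the V2LHS_62675 arrays. The first array of clone 2 lay below the other 2, and the arrays of the 1 clone spread about as far as the 3 empty vector clones. Knockdown and control differed by -0.10 (SE 0.18, adjusted p = 0.805, limma) with clone 8 and by 0.022 (SE 0.15, adjusted p = 0.991) without it. With clone 8 kept and wild type left out, the means were 8.805 in the knockdown samples and 8.798 in the empty vector clones. The direction thus turned on leaving out either array.

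NCAPH2, the kleisin of condensin II, had a log2 level of 8.13 in wild type cells and 7.87, 7.70 and 7.79 in the empty vector clones. It was 8.18, 7.75 and 7.86 in clones 8, 9 and 12, and 7.88, 8.20 and 8.11 on the V2LHS_62675 arrays. NCAPH2 was the 1 measured gene that was not lowest in clone 8, where it lay 0.39 above the empty vector mean, close to the median of 0.41 for its signal class. Knockdown and control differed by 0.09 (SE 0.15, adjusted p = 0.794, limma), and by 0.017 (SE 0.12, adjusted p = 0.991) without clone 8. A second NCAPH2 probe is shared with SCO2, and its mean was 7.27 in the knockdown samples, 7.13 in those without clone 8, and 7.12 in the controls.

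SMC5, which pairs with SMC6 as the ATPase of SMC5/6, had a log2 level of 9.33 in wild type cells and 9.10, 9.10 and 8.91 in the empty vector clones. It was 8.63 in clone 8, 9.41 in clone 9 and 9.53 in clone 12, and 9.40, 9.18 and 9.32 on the V2LHS_62675 arrays. Clones 2, 9 and 12 all lay above the 3 empty vector clones, and clone 8 lay below them. SMC5 was the 1 gene of the 7 with this separation, which 8.54% of all features showed in the same direction. Wild type cells were as high as clone 2, so the separation did not hold against all 4 controls, as it did for 3.44% of features. A second SMC5 probe, shared with SGCZ, lay under the low-signal limit, at 4.59 to 4.76 in the empty vector clones. It did not repeat the separation, with 4.62 in clone 9, 4.77 in clone 12, 4.87 in clone 2 and 5.10 in clone 8. On the brighter probe, knockdown and control differed by 0.11 (SE 0.20, adjusted p = 0.815, limma), and by 0.30 (SE 0.11, adjusted p = 0.751) without clone 8. With all clones the difference between V2LHS_62673 and empty vector was 0.15 (SE 0.25, adjusted p = 0.778, limma). Without clone 8 it was 0.43 (SE 0.10, 95% interval 0.21 to 0.66), with an adjusted p of 0.0748, the smallest of the 7 genes in that comparison. With all clones kept but arrays weighted by their quality it was 0.38 (adjusted p = 0.0447), and 3.02% of features passed there. Over all the alternatives tried, the adjusted p of SMC5 in this comparison ranged from 0.0447 to 0.972. Wild type cells differed from the empty vector clones by 0.29 (SE 0.13, adjusted p = 0.232) without clone 8.

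SMC6 is the partner of SMC5 in the ring. Its log2 level was 8.80 in wild type cells, 8.68, 8.79 and 8.41 in the empty vector clones, 8.37, 8.65 and 8.69 in clones 8, 9 and 12, and 8.69, 8.44 and 8.62 on the V2LHS_62675 arrays. Clone 8, the third empty vector clone and the second V2LHS_62675 array were lowest, so low values came from 3 of the 4 groups. Knockdown and control differed by -0.10 (SE 0.14, adjusted p = 0.771, limma), and without clone 8 by -0.03 (SE 0.10, 95% interval -0.27 to 0.20).

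**Figure D1:**
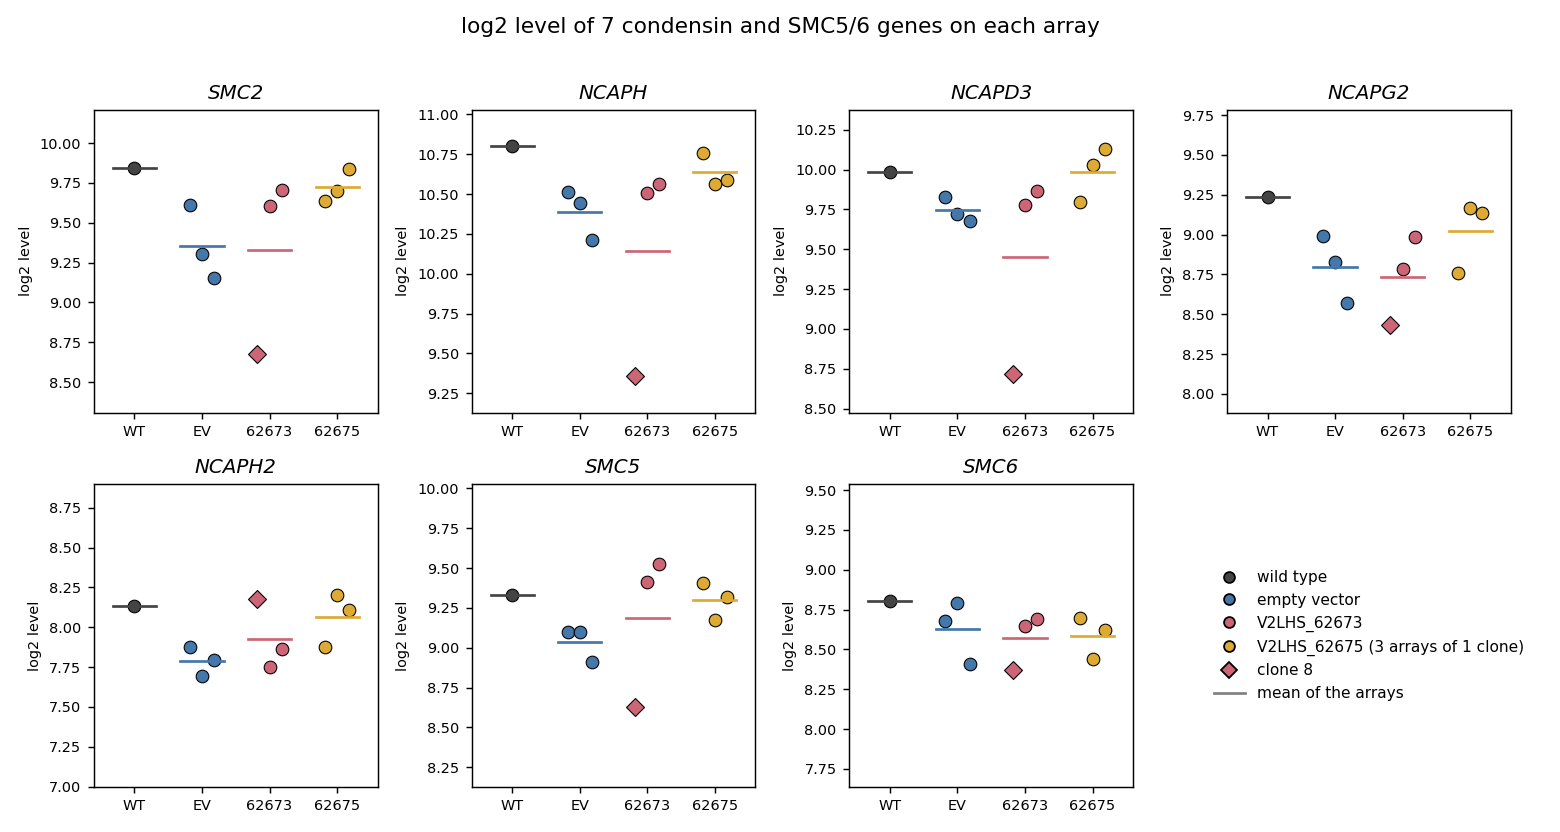
Log2 level (y axis, each panel spanning the same width of the scale) of the 7 measured genes on each of the 10 arrays, by group (x axis: WT, wild type; EV, empty vector; then V2LHS_62673 and V2LHS_62675). Points are arrays, the diamond is clone 8 and lines are means over arrays; the diamond is the lowest point for all genes but NCAPH2, and the wild type point lies above the 3 empty vector points in all 7 panels.

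None of the 7 genes passed an adjusted p of 0.05 in any of the 5 comparisons, and with all clones 0% of the 11199 tested features (the genes and the LMNB1 probe) did in limma's test. At an unadjusted p under 0.05 there were 0 of the 7 genes in each. Over all features that share was 2.29% between knockdown and control, 3.21% for V2LHS_62673, 2.64% for V2LHS_62675 and 2.59% for wild type against empty vector, and 2.22% between the constructs. In none of the 7 genes were all 4 knockdown samples on one side of all 4 controls, which 3.13% of features were. Between knockdown and control the median difference of the 7 genes was -0.10, with 2 of 7 on the higher side, and without clone 8 it was 0.07, with 6 of 7. Relative to empty vector the median difference of the 7 genes was -0.06 in V2LHS_62673, 0.25 in V2LHS_62675 and 0.34 in wild type cells, and that of all features was 0.04, 0.02 and -0.01. These comparisons share the empty vector clones. Between V2LHS_62675 and V2LHS_62673 all 7 genes were on the higher side in the former, with a median of 0.29, and none passed. Without clone 8 that median was 0.10 with 5 of 7 on the higher side, SMC5 and SMC6 lying at -0.17 and -0.08.

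Without clone 8 the fit found differences elsewhere but none among the 7 genes. Adjusted p was under 0.05 for 0.991% of features between V2LHS_62673 and empty vector, 3.74% between V2LHS_62675 and empty vector, 3.57% between wild type and empty vector, and 2.15% between the constructs. Between knockdown and control it was 0%, where 1 of the 7 genes (SMC5) and 6.46% of features had an unadjusted p under 0.05. That unadjusted level was met by SMC2 and SMC5 in V2LHS_62673 (15.9% of features), by SMC2 and NCAPH2 in V2LHS_62675 (18.2%) and by 0 of 7 genes between the constructs (15.2%). The median difference of the 7 genes from empty vector was then 0.09 in V2LHS_62673, with 7 of 7 on the higher side. Limma's 95% intervals for V2LHS_62673 ended at 0.58 (SMC2), 0.39 (NCAPH), 0.29 (NCAPD3), 0.37 (NCAPG2), 0.24 (NCAPH2), 0.66 (SMC5) and 0.30 (SMC6). The data do not tell smaller increases from none. The intervals of NCAPH, NCAPD3, NCAPG2, NCAPH2 and SMC6 started below 0, so small decreases lay within them as well. The interval of SMC2 started at 0.01 and that of SMC5 at 0.21. These intervals are not adjusted for the number of features, and neither gene passed after adjustment.

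**Figure D2:**
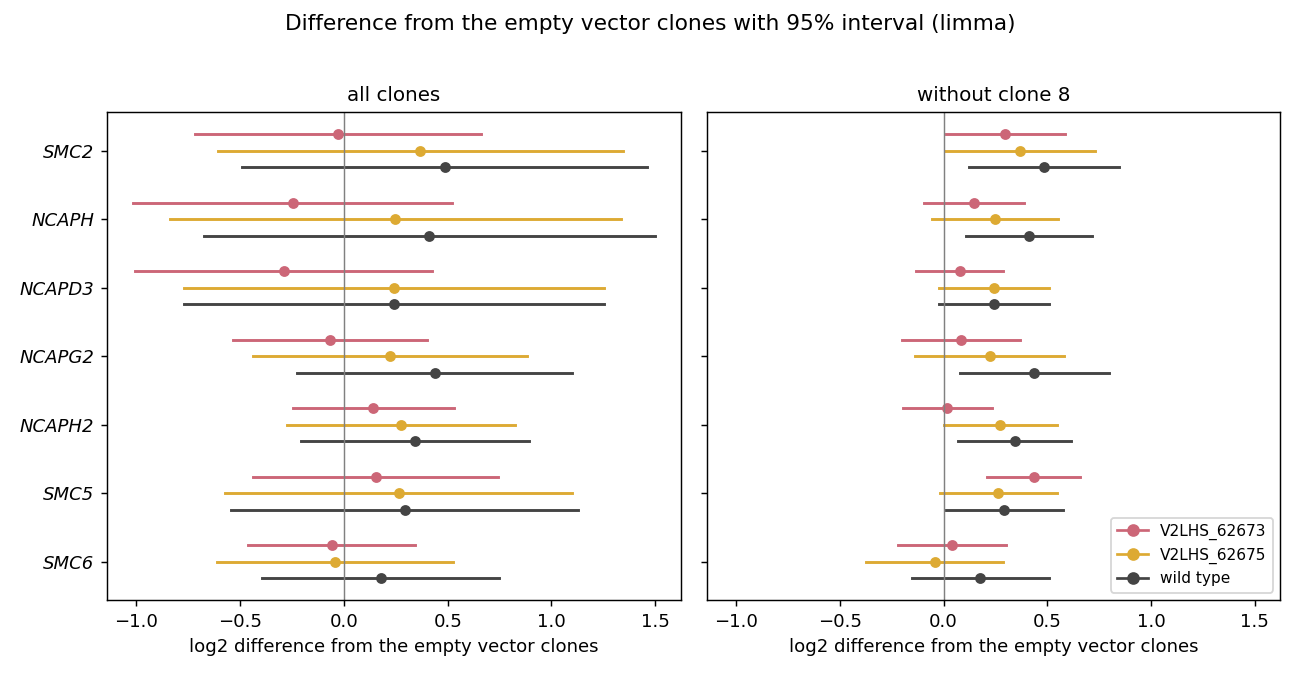
Log2 difference from the empty vector clones (x axis) of the 7 genes (y axis) for V2LHS_62673, V2LHS_62675 and wild type, with all clones (left) and without clone 8 (right). Points are limma estimates and bars 95% intervals; leaving out clone 8 moved SMC2 in V2LHS_62673 from -0.03 to 0.30 and SMC5 from 0.15 to 0.43, and the bars became shorter.

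All 7 genes were higher in wild type than in each of the 3 empty vector clones, an order seen for 30.1% of all features. Without clone 8 the differences were 0.48 for SMC2 (SE 0.16, adjusted p = 0.128), 0.44 for NCAPG2 (SE 0.16, adjusted p = 0.163), 0.41 for NCAPH (SE 0.14, adjusted p = 0.126), 0.34 for NCAPH2 (SE 0.12, adjusted p = 0.150), 0.29 for SMC5, 0.24 for NCAPD3 and 0.18 for SMC6, in limma's test. Of these, 5 had an unadjusted p under 0.05, against 19.7% of features, and none passed after adjustment. Wild type is 1 culture and differs from the clones in transfection, cloning and puromycin, which cannot be told apart here. The third empty vector clone was the lowest of the 3 for 6 of 7 genes, NCAPH2 being the exception, and 29.9% of features had that order.

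The 3 arrays of clone 2 differed among themselves, for some genes less and for others more than the separate empty vector clones did. Their SD was 0.10 for SMC2, 0.11 for NCAPH, 0.17 for NCAPD3, 0.23 for NCAPG2, 0.17 for NCAPH2, 0.11 for SMC5 and 0.13 for SMC6, against 0.23, 0.16, 0.08, 0.21, 0.09, 0.11 and 0.20 for the empty vector clones in the same order. The first array was the lowest of the 3 for SMC2 and all 3 condensin II genes and the highest for NCAPH, SMC5 and SMC6.

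**Figure D3:**
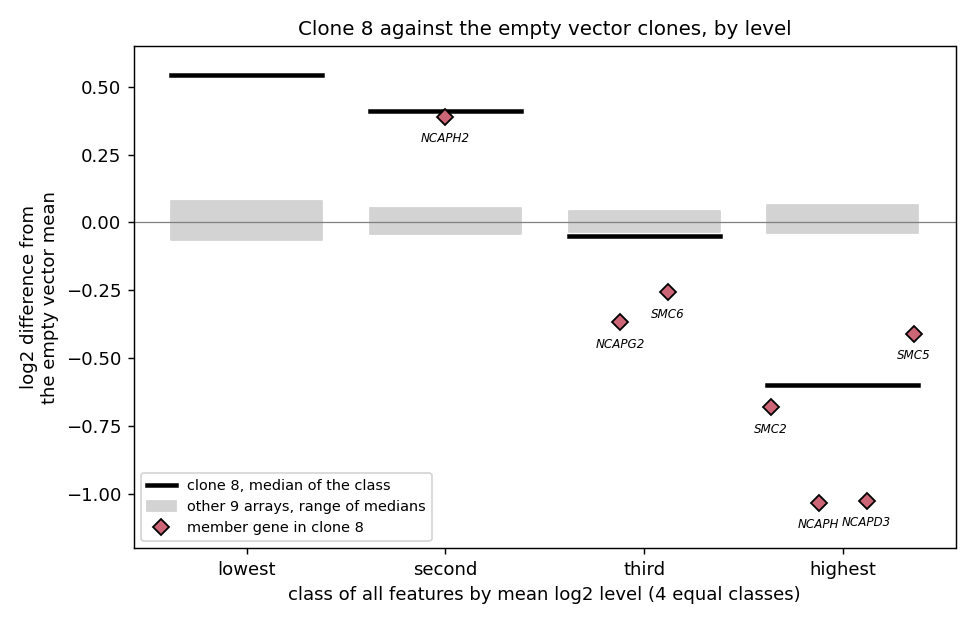
Log2 difference of clone 8 from the empty vector mean (y axis) by class of all features by mean log2 level (x axis, 4 equal classes). Black lines are the clone 8 medians, grey bands the range of the other 9 arrays' medians and diamonds the measured condensin and SMC5/6 genes in clone 8; the line runs from 0.54 in the lowest class to -0.60 in the highest, and NCAPH (-1.03) and NCAPD3 (-1.03) lie below it.

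In clone 8, 6 of 7 genes were lower than on every other array, an order that 31.4% of all features showed. NCAPH and NCAPD3 each lay at -1.03 from the empty vector mean, SMC2 at -0.68 and SMC5 at -0.41, against the median of -0.60 for features of their signal class. NCAPG2 and SMC6 lay at -0.37 and -0.26, against -0.05. The 18 measured genes of a G2/M list had a median of -1.08 in clone 8. The part of the signal compression in these values was not tested.

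The probes that cover the other 3 genes share their signal with neighbours. The SMC4 probe, shared with MIR15B and MIR16-2, had log2 levels of 10.30 in wild type, 10.15, 10.10 and 9.81 in the empty vector clones, 9.21, 10.14 and 10.39 in clones 8, 9 and 12, and 10.26, 9.88 and 10.03 in V2LHS_62675. The NCAPD2 probe, shared with SCARNA10 and FADS1, stayed between 10.56 and 10.68 in the controls and between 10.40 and 10.90 on the knockdown arrays. Of 2 probes shared by NCAPG and LCORL, the brighter averaged 10.35 ± 0.25 (SD, n = 4) in controls and 10.29 ± 0.40 (SD, n = 4) in knockdown samples. The dimmer averaged 8.07 ± 0.16 and 7.79 ± 0.62 (SD, n = 4 each), and clone 2 was lower on it (7.57) than clones 9 and 12 (8.35 and 8.23). Control and knockdown ranges overlapped on all 4 probes, and none was tested, since the source of the signal is not single.

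Across samples NCAPH, SMC2, NCAPG2 and NCAPD3 followed the shared profile most closely. Each gene was correlated with the mean profile of the 7, of which it is a part. Over the 7 samples without clone 8, Pearson's r was 0.987 for NCAPH, 0.972 for SMC2, 0.954 for NCAPG2, 0.929 for NCAPD3, 0.766 for NCAPH2, 0.747 for SMC5 and 0.632 for SMC6. With clone 8, which has a large weight in such values, NCAPH2 was at -0.13 and the other 6 between 0.800 and 0.990. Between single genes the median r of the 21 pairs was 0.73 without clone 8 (range 0.16 to 0.96). The genes outside the set whose profile was most like the mean of the 7 were KIF11, a mitotic kinesin (r = 0.990), CHML (0.984), BCAP29 (0.982), CENPE, a kinetochore motor (0.982), and BLM, a DNA helicase (0.977), over the 7 samples without clone 8. With clone 8 they were CENPE (0.990), NDC80, a kinetochore protein (0.989), MTHFS, PI4K2B and NUDT5 over 8 samples. These are descriptions of samples that share few clones, chosen as the highest of all genes.

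The G2/M list holds genes whose RNA is known to peak late in the cell cycle. Its medians were close to those of the 7 genes on the arrays other than clone 8. Of its genes, CENPE and KIF11 are also among those picked above, from these same data, for the most similar profile. The median difference from the empty vector mean was 0.34 for the 7 genes and 0.28 for the G2/M genes in wild type, and -0.18 and -0.14 in the third empty vector clone. In clones 9 and 12 it was 0.04 and 0.18 for the 7 genes, and 0.07 and 0.16 for the G2/M genes. The V2LHS_62675 arrays gave 0.09, 0.29 and 0.32 against 0.23, 0.19 and 0.30. Such a likeness was not particular to the G2/M list. The cohesin core, 4 genes of the ring that holds sister chromatids together, had 0.25 in wild type and -0.07 in the third empty vector clone. Its medians were 0.24 and 0.23 in clones 9 and 12, and 0.19, 0.15 and 0.36 on the V2LHS_62675 arrays. The median of all features lay between -0.01 and 0.04 outside clone 8. Whether a cell cycle difference between cultures has a part in the levels of the 7 genes was not tested.

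**Figure D4:**
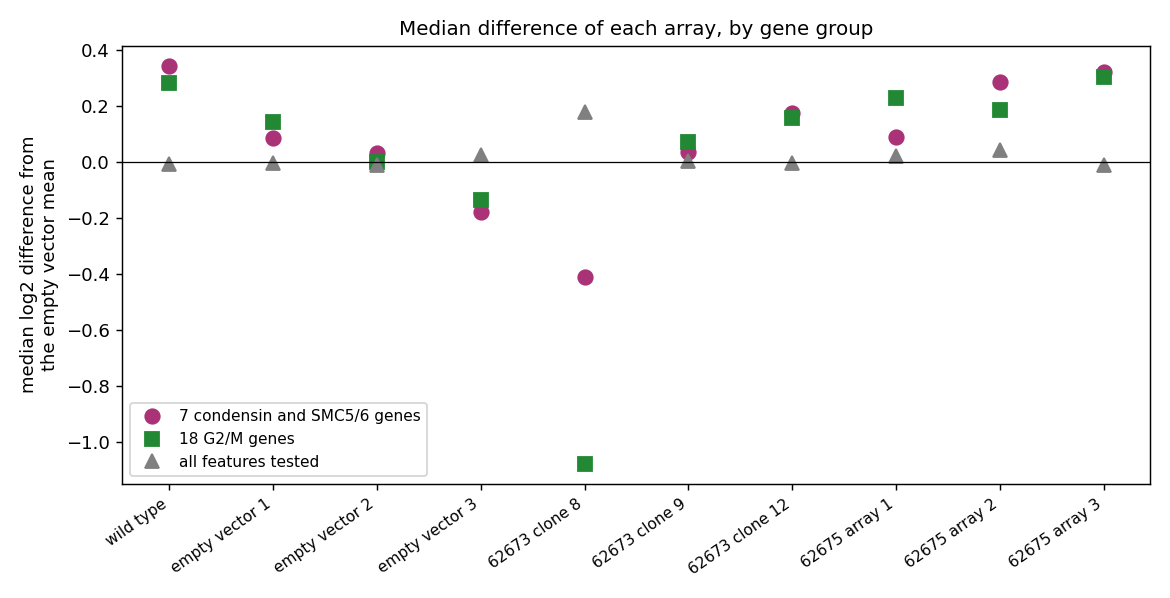
Median log2 difference from the empty vector mean (y axis) on each of the 10 arrays (x axis) for the 7 measured condensin and SMC5/6 genes, 18 G2/M genes and all features tested. The first 2 series lie near each other on 9 arrays and part in clone 8 (-0.41 and -1.08), while the median of all features is 0.18 in clone 8 and near 0 on the others.

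Other genes of the pathways gave no call with all clones. Of 6 measured SMC5/6 partners, 2 were on the higher and 4 on the lower side between knockdown and control, with a median of -0.13, and the smallest p-values belonged to NSMCE1, the RING-finger subunit of SMC5/6 (-0.69, SE 0.20), NSMCE4A (-0.30) and EID3 (0.34), each at an adjusted p of 0.761 in limma's test. Among 12 condensin partners the median was 0.10, with TOP2B, a DNA topoisomerase, at -0.33, INCENP of the chromosomal passenger complex at 0.25 and BIRC5, the survivin subunit of that complex, at 0.34. Of 4 cohesin core genes, the ring that holds sister chromatids together, SMC3 was at 0.47, STAG2 at -0.19 and SMC1A at 0.13. Of 18 G2/M genes 13 were on the lower side with a median of -0.21, and CCNA2 (-0.37), CCNB2 (-0.26) and TTK (-0.48) had the smallest p-values. None of these passed.

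Leaving out clone 8 turned 2 of these knockdown to control medians, and again none of the genes passed. The SMC5/6 partners then had 4 of 6 on the higher side with a median of 0.047, and NSMCE1 was at -0.50, NSMCE4A at -0.21 and EID3 at 0.16. The G2/M genes had 14 of 18 on the higher side with a median of 0.075, and CCNA2, CCNB2 and TTK were at -0.072, -0.052 and -0.087. The condensin partners had a median of 0.084 with 9 of 12 on the higher side, with TOP2B at -0.27, INCENP at 0.11 and BIRC5 at 0.31. The cohesin median went from 0.094 to 0.17, with 3 of 4 on the higher side both times, SMC3 at 0.57, STAG2 at -0.12 and SMC1A at 0.22.

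Between the single groups, without clone 8, some of these genes passed, in limma's test at the shares of all features given above. NSMCE1 fell by 0.62 (SE 0.11, adjusted p = 0.0281) in V2LHS_62673 and was at -0.47 (adjusted p = 0.0829) in V2LHS_62675. It was at -0.28 (adjusted p = 0.284) in wild type. It was the 1 call among the 6 SMC5/6 partners in these comparisons. The cohesin ATPase SMC3 rose by 0.75 in V2LHS_62673 (SE 0.11, adjusted p = 0.0146) and by 0.79 in V2LHS_62675 (SE 0.13, adjusted p = 0.0134), and it was also higher in wild type cells, by 0.76 (SE 0.13, adjusted p = 0.0209). Its shift was thus against the empty vector clones in all 3 groups, and its knockdown to control difference of 0.57 had an adjusted p of 0.712.

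Among the condensin partners without clone 8, 3 of 12 rose in V2LHS_62675: BIRC5 by 0.79, the mitotic kinase PLK1 by 0.67 and CDCA8, the passenger complex subunit borealin, by 0.57 (adjusted p = 0.0216, 0.0207 and 0.0447, limma). The same 3 genes were higher in wild type than in empty vector, by 0.79, 0.56 and 0.83 (adjusted p = 0.0255, 0.0403 and 0.0138), and these 2 comparisons share the empty vector clones. BIRC5 has a second, dimmer probe, on which the V2LHS_62675 arrays (6.88 to 6.92) lay within the empty vector range (6.73 to 6.96) and wild type above it (7.10). Of 18 G2/M genes, FOXM1 and PTTG1 rose in V2LHS_62675, each by 0.55, and CENPF was higher in wild type by 0.67. None of the 12 partners or 18 G2/M genes passed in V2LHS_62673. Between the constructs, AURKB, the kinase of the passenger complex, and PTTG1, encoding securin, were higher in V2LHS_62675 by 0.59 and 0.73 (adjusted p = 0.0403 and 0.0303, limma).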

How the data were processed

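Per the labels' protocols, Trizol RNA was reduced for ribosomal RNA and hybridised as end-labelled (biotin) single-stranded cDNA. The authors deposited 1 log2 value per probe and array for 22011 probes, used as deposited; the log base was read from the values. How they corrected background and normalized, and with which software and build, is not given in the sources used here. Gene symbols came from the platform annotation: 14432 probes carry 1 symbol, 2408 several and 5171 none, and 14404 of the first matched RefSeq's gene table (GRCh38.p14). Levels under the 25th percentile of probe means were left out. limma 3.58.1 (lmFit, eBayes; R 4.3.3) was run on 8 samples, two-sided, with Benjamini-Hochberg adjustment over 11199 features and a threshold of 0.05. Knockdown against control used 2 groups (6 residual degrees of freedom); the other comparisons used 4 groups (4 residual degrees of freedom, 3 without clone 8), where V2LHS_62675 and wild type, 1 sample each, were assumed to vary like the others. The p-values measure the spread between these clones and cultures, and the number of arrays limits precision. The fit was tested on simulated data.

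The members and lists were chosen with earlier results of these data known. Named beyond the members, from the lists other than the cell type markers, are genes past the threshold. Also named are, per such list, up to 3 with the smallest p between knockdown and control, and the 5 genes with the most similar profile. Cell type markers were described by their levels only. Alternatives were another scaling, filter, probe rule or prior, array weights, clone or replicate number as a block, every array as a replicate, and leaving out each sample. The replicate numbers of empty vector and V2LHS_62675 were not taken as pairs, as same-numbered arrays did not deviate together.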

Additional observations from a re-analysis of the deposited data

Results flagged for a closer look

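In 3 genes the clone 8 array lay far from the other knockdown samples. The gap to its nearest neighbour, divided by the range of the 4 knockdown samples, was 0.883 for SMC2 (log2 level 8.67), 0.897 for NCAPH (9.36) and 0.837 for NCAPD3 (8.72). These gaps exceed Dixon's 95% critical value for 4 samples. Chance flags about 1 in 20 groups, and clone 8 is the array whose signal is compressed.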

How the results depend on the processing

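Of 707 member values under 22 alternatives, 657 kept their direction and side of the threshold, 49 turned direction and 1, SMC5 in V2LHS_62673 with array weights, passed it. The number of members called stayed at 0 in 100 of 101 cases, and was 1 in that one. The cause of the changes below was not tested. The alternatives without clone 8 and wild type, and without clone 8 with quantile normalization, were chosen after seeing the data.

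With array weights, the knockdown to control differences were 0.040 (NCAPD3), 0.056 (NCAPH) and 0.15 (SMC2). V2LHS_62673 against empty vector gave 0.040 (NCAPD3), 0.0041 (NCAPG2), 0.093 (NCAPH), -0.00044 (NCAPH2) and 0.23 (SMC2), and V2LHS_62675 against V2LHS_62673 gave -0.14 (SMC5), -0.074 (SMC6) and a members' median of 0.12. Without clone 8 and wild type, knockdown to control was 0.13 (NCAPD3), 0.13 (NCAPG2), 0.18 (NCAPH), 0.32 (SMC2) and 0.013 (SMC6), with a median of 0.13. Without clone 8 under quantile normalization it was 0.065 (NCAPD3), 0.024 (NCAPG2), 0.067 (NCAPH) and 0.19 (SMC2), with a median of 0.065. V2LHS_62673 then gave 0.071 (NCAPD3), 0.092 (NCAPG2), 0.14 (NCAPH), 0.29 (SMC2) and 0.057 (SMC6), median 0.092, and V2LHS_62675 against V2LHS_62673 gave -0.21 (SMC5), -0.12 (SMC6) and a median of 0.055. Quantile normalization of all arrays put SMC6 at -0.014 between the constructs, and every array as a replicate put SMC2 at 0.049 between knockdown and control.

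The features called were 0 in all 5 comparisons with the settings reported. In the order knockdown to control, V2LHS_62673, V2LHS_62675 and wild type against empty vector, and between constructs, they were 7, 338, 472, 479 and 371 with array weights. Without clone 8 under quantile normalization they were 27, 283, 205 and 157 in the last 4. With every array as a replicate they were 2, 6, 59 and 15, and with clone as a random block 1, 5, 1 and 4, wild type against empty vector staying at 0 in both. Quantile normalization and a trended prior gave 1 between knockdown and control, no filter gave 1 in wild type, and leaving out clone 8 and wild type gave 19.

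Leaving out each sample gave 0 to 3, 0 to 111, 0 to 419, 0 to 400 and 0 to 241 features in that order; the highest of the last 4 are those without clone 8. The members' median ran from -0.19 to 0.072 between knockdown and control, from -0.19 to 0.086 in V2LHS_62673 and from 0.10 to 0.42 between the constructs. Between knockdown and control NCAPD3 ran from -0.31 to 0.072, NCAPG2 from -0.21 to 0.022, NCAPH from -0.33 to 0.077 and SMC2 from -0.16 to 0.20. In V2LHS_62673 against empty vector NCAPD3 ran from -0.49 to 0.078, NCAPG2 from -0.19 to 0.086, NCAPH from -0.46 to 0.15, SMC2 from -0.22 to 0.30, SMC5 from -0.016 to 0.43 and SMC6 from -0.17 to 0.041. SMC6 ran from -0.15 to 0.040 in V2LHS_62675 against empty vector. Between the constructs SMC5 ran from -0.17 to 0.28 and SMC6 from -0.084 to 0.088.

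With a replicate block for empty vector and V2LHS_62675, 944 features and no member passed. Same-numbered arrays correlated at 0.03, -0.15 and -0.23 in their deviations, so the numbers give no pairing.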
